A study of Mus musculus with 96 samples.

Results

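Cortex microRNAs were compared between Q20 mice and their wild-type (WT) littermates at 6 months of age, to ask what a knock-in allele with a short CAG repeat does on its own. The comparison held 16 of the 96 libraries of the series, 8 from Q20 mice and 8 from WT mice of the Q20 line, chosen by genotype and age as given in the sample titles. Q20 mice were heterozygous, with 1 endogenous *Htt* allele and 1 knock-in allele that carries human *HTT* exon sequence with 20 CAG repeats under the mouse gene's own control. WT mice carried no knock-in allele. Both groups had 4 females and 4 males and shared cages, and each library came from 1 animal. Their strain label is C57BL/6, and the mothers were C57BL/6J mice per the methods of the study. Replicates are named F1 to F4 and M1 to M4 after their sex. The knock-in line descends from 1 engineered allele, and bulk cortex mixes neurons, glia and vessels, so that fewer cells of a type and less RNA per cell cannot be told apart. All other groups of the series entered only where stated, namely the same line at 10 months and Q50 mice with their own WT littermates.

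Huntington's disease is caused by an expanded CAG repeat in the first exon of *HTT*, which lengthens a glutamine tract in the huntingtin protein. Repeats in the range carried by Q20 mice are common in unaffected people, and such mice often serve as controls for longer repeats. MicroRNAs are short RNAs cut from hairpin precursors called stem-loops, and they guide repression of messenger RNAs with matching sites. In the cortex they take part in neuronal maturation, synaptic function and the upkeep of glia. The values here were counted per stem-loop, so that both arms of a hairpin share 1 value. The deposited tables name stem-loops by miRBase accession. No microRNA name was assigned to an accession here, and no role is therefore given for single stem-loops.

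Libraries held 6255663 to 7651621 counts in Q20 mice and 6245224 to 7632612 counts in WT mice. A screen of library connectivity over the 48 libraries of 6 months, taken from the methods of the study, left out WT M4 (standardised connectivity -5.37 against a threshold of -5). The fit therefore held 8 Q20 and 7 WT libraries. Q20 M1 at -4.81 and WT M1 at -4.15 came close to the threshold and were kept. The sample descriptions carry a field L1, L2 or L3 whose meaning is not given. It was unbalanced between the groups, with 5 L1 and 3 L2 libraries among Q20 mice and 3 L1 and 5 L2 libraries among WT mice, and it entered the model with sex. No pair of libraries within a group agreed to within counting noise, the smallest ratio of the chi-square statistic to its degrees of freedom being 84.7 in Q20 and 63.9 in WT.

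No stem-loop passed the test between Q20 and WT cortex at 6 months. Of 421 stem-loops tested with edgeR's quasi-likelihood test, 0 passed a Benjamini-Hochberg false discovery rate (FDR) of 0.05 (0% called), and the smallest adjusted p was 0.763. At an unadjusted p under 0.05 there were 22 (5.23% of those tested), 9 higher and 13 lower in Q20. DESeq2 on the same stem-loops also called 0, with 16 at an unadjusted p under 0.05 and a smallest adjusted p of 0.293. The ranges of the Q20 and WT libraries, in CPM (counts scaled to library size), overlapped for every tested stem-loop (0 of 421 apart, 0%). The scaling centres the changes, and 193 estimates lay above and 228 below 0 with a median log2 change of -0.01. Under 10 CPM, 41 estimates lay above and 70 below 0, with 1 higher and 8 lower in Q20 at an unadjusted p under 0.05.

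The count of 0 covered stem-loops measured with very different precision. The 90 stem-loops at a mean of 1000 CPM or more held 94.95% of the counts. Their median size of change was 0.03 on the log2 scale with a median SE of 0.06, and the largest change among them was 0.15. For 78 of these 90, the whole 95% interval of the log2 change lay within 0.25 of 0 on either side, and for 85 it lay within 0.5. Among 125 stem-loops of 100 to 1000 CPM, 85 had intervals within 0.25 and 113 within 0.5. Precision at these bounds fell off below this level. Of 95 stem-loops of 10 to 100 CPM, 35 had intervals within 0.25 and 78 within 0.5. Of 111 stem-loops under 10 CPM, 1 had an interval within 0.25 and 45 within 0.5, at a median SE of 0.17. Intervals lay within 1, a change of 2-fold, for 89 of 90 stem-loops of 1000 CPM or more and 118 of 125 of 100 to 1000 CPM. They did so for 88 of 95 of 10 to 100 CPM and 102 of 111 under 10 CPM. Over all 421, the intervals of 321 excluded a log2 change of 0.5 or more in either direction and those of 397 excluded a change of 1 or more. Some intervals under 10 CPM may be too narrow, so that counts within a bound may be too high there and over all 421. For 1 such stem-loop the interval ran from -0.82 to -0.005, without 0, at an unadjusted p of 0.0633 by edgeR.

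**Figure D1:**
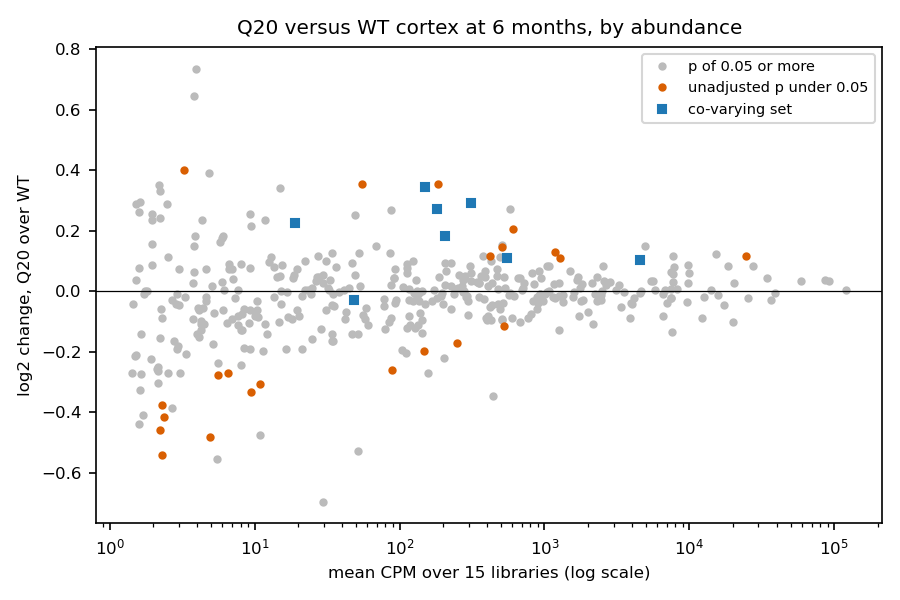
Log2 change of Q20 over WT cortex at 6 months (y axis) against mean CPM over the 15 libraries fitted (x axis, log scale), 1 point per stem-loop, with orange for an unadjusted p under 0.05 and blue squares for the 8 co-varying stem-loops. The spread narrows to the right, where no stem-loop of 1000 CPM or more moved by over 0.15, and none of the 421 passed FDR 0.05.

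The stem-loops with the largest shares of counts had narrow intervals around no change. The stem-loop with the largest share of counts took 11.8% ± 0.595 of a library in Q20 mice (SD, n = 8) and 12.1% ± 0.914 in WT mice (SD, n = 7). Its log2 change was 0.00 with a 95% interval of -0.09 to 0.10. The second took 9.11% ± 0.849 in Q20 (SD, n = 8) and 9.07% ± 0.317 in WT (SD, n = 7), and its interval ran from -0.09 to 0.15. The next took 8.62% ± 0.566 in Q20 (SD, n = 8) and 8.35% ± 0.437 in WT (SD, n = 7), with an interval of -0.06 to 0.14. These shares are not scaled by length. The second and the next had values that were mostly not whole numbers, as arises when reads are divided between loci, so that their values are uncertain where near-identical hairpins exist. Such stem-loops made up 119 of the 421 tested and 57.6% of the counts. Their median log2 change was 0.01 and that of the 302 others was -0.02.

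For 3 whole-library measures, no difference beyond the spread between animals was found. Total counts averaged 6896980 ± 457179 in Q20 and 6586710 ± 469523 in WT (SD, n = 8 each, exact two-sided permutation p = 0.199, adjusted over 3 measures 0.298). A count was found for 699.5 ± 9.47 stem-loops per library in Q20 and 688.6 ± 11.5 in WT (SD, n = 8 each, exact permutation p = 0.0620, adjusted 0.186). The 10 largest stem-loops took 53.8% ± 0.909 of counts in Q20 and 53.8% ± 0.882 in WT (SD, n = 8 each, exact permutation p = 0.966, adjusted 0.966). Of 903 stem-loops with any count in the 16 libraries, 828 were found in both genotypes, 47 in Q20 alone and 28 in WT alone. None of those found in 1 genotype alone appeared in more than 3 of its 8 libraries, and the highest single count was 5 among the Q20 ones and 11 among the WT ones.

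The stem-loops with the smallest p at a mean of 10 CPM or more showed how close the groups lay. The highest-ranked was MI0021587, at 38.3, a median of 58.6 and 89.6 CPM (lowest, median and highest of 8) in Q20 libraries, against 39.7, 49.7 and 71.4 CPM in 8 WT libraries. Its log2 change was 0.35 ± 0.10 (SE, n = 8 and 7, unadjusted p = 0.00382, adjusted p = 0.763 by edgeR). The high values went with the L field. All 3 Q20 libraries of L2 had 70.1 to 89.6 CPM, and the 5 of L1 had 38.3 to 62.1 CPM. Among WT libraries the 5 of L2 had 49.2 to 71.4 CPM and the 3 of L1 had 39.7 to 42.7 CPM. In the same fit MI0021587 was 0.57 ± 0.10 higher on the log2 scale in L2 than in L1 libraries (adjusted p = 0.0120). The log2 change of Q20 over WT was 0.58 within L2 and 0.16 within L1, and neither passed. Against WT mice of both the Q20 and Q50 lines it was 0.18 (unadjusted p = 0.355).

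MI0000578 was the other stem-loop at the top of the higher side. It was at 537, a median of 624 and 749.9 CPM in Q20 libraries, against 430.0, 572 and 708 CPM in WT libraries, and 7 of 8 Q20 libraries lay above the median of the 7 WT libraries fitted. Its log2 change was 0.20 ± 0.07 (SE, adjusted p = 0.763 by edgeR). Its L field term was 0.27 ± 0.07 (adjusted p = 0.0409), with 686 to 749.9 CPM in L2 and 537 to 629 CPM in L1 among Q20 libraries, and 563 to 708 CPM in L2 and 430.0 to 567 CPM in L1 among WT libraries. The genotype change was 0.19 within L2 and 0.17 within L1. Against WT mice of both lines it was 0.08.

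On the lower side, MI0000715 was at 63.2, a median of 83 and 96.7 CPM in Q20 libraries, against 67.7, 92.5 and 124 CPM in WT libraries. The lowest WT value is that of M4, which the fit left out, and the 7 others were at 86.1 CPM or more. In the fit the log2 change was -0.26 ± 0.08 (SE, adjusted p = 0.763 by edgeR), and 7 of 8 Q20 libraries lay below the median of the WT libraries fitted. It was -0.37 within L2 and -0.13 within L1. MI0000721 was at 208, a median of 236 and 264 CPM in Q20 libraries, against 214, 245 and 321 CPM in WT libraries, with a log2 change of -0.17 ± 0.07 (SE, adjusted p = 0.852 by edgeR). All 8 Q20 libraries lay below the median of the 7 WT libraries fitted, 269.6 CPM. With WT M4 counted the WT median was 245 CPM, and Q20 F1 (249 CPM) and Q20 M2 (264 CPM) lay above it. The spread was uneven, with an SD of 16.3 CPM over 8 Q20 and 45.0 CPM over 7 WT libraries. The WT values fell into an L1 range of 271 to 321 CPM and an L2 range of 214 to 269.6 CPM, and the change was -0.27 within L1 and -0.02 within L2. Values of MI0000578, MI0000715 and MI0000721 were mostly not whole numbers, so that reads from similar hairpins may be divided between them and other loci.

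**Figure D2:**
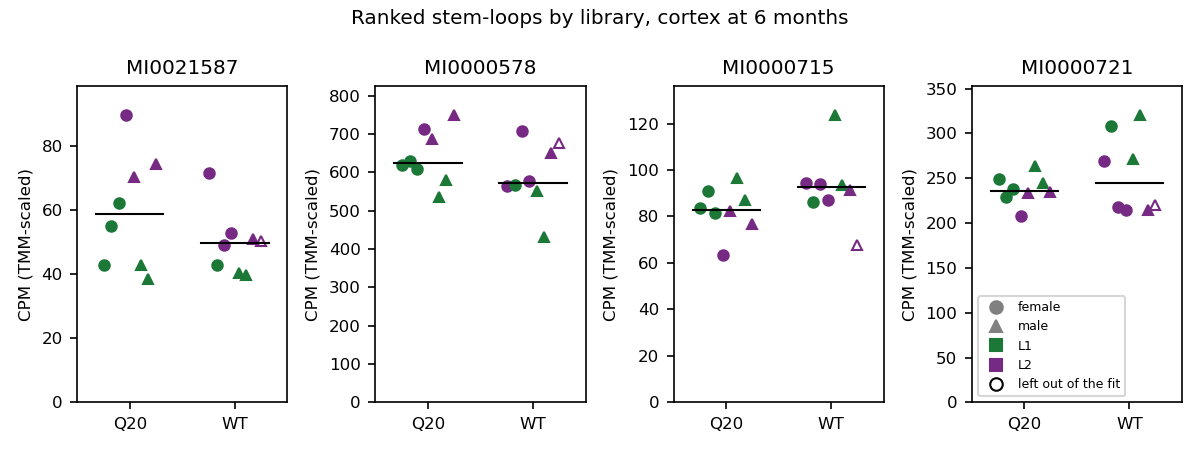
CPM (y axis, from 0) of the 4 top-ranked stem-loops in each of 8 Q20 and 8 WT libraries at 6 months, with circles for females, triangles for males, green for L1, purple for L2, an open symbol for WT M4 and a bar at the median of 8. The genotypes overlap in every panel, and for MI0021587 the 3 L2 libraries of Q20 mice lie above the 5 L1 libraries of Q20 mice.

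The largest variation among the 16 libraries lay within both genotypes, and was not itself tested against genotype. A group of 8 stem-loops led the first principal component over all 96 libraries, which held 48.3% of the variance, and the same 8 led the first component over these 16 libraries (51.8%). They were chosen by that component, so that their levels are given as a description. Any 2 of the 8 correlated at r = 0.96 or more on the log2 scale across the 16 libraries. Their summed level was 600.3, a median of 1465 and 24316 CPM in Q20 libraries, against 714, 5343 and 18507 CPM in WT libraries. It was above 5000 CPM in 3 of 8 Q20 and 4 of 8 WT libraries. In males it exceeded 5000 CPM in 1 of 4 Q20 and 3 of 4 WT libraries, and in females in 2 of 4 Q20 and 1 of 4 WT libraries. By L field it did so in 2 of 5 Q20 and 2 of 3 WT libraries of L1, and in 1 of 3 Q20 and 2 of 5 WT libraries of L2. The mean summed level was 5665 CPM in Q20 libraries, with M1 at 24316 CPM, and 6021 CPM in WT libraries (n = 8 each). Though the median was lower in Q20, 7 of the 8 log2 changes in the fit were above 0. The changes of the 8 ran from -0.03 to 0.34 with a median SE of 1.07, and none passed. A change of up to several-fold in these 8 was thus not detectable with these animals. With their summed level as a covariate, an alternative chosen after seeing the data, edgeR again gave 0 calls (19 at an unadjusted p under 0.05).

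The second component (21.45% of the variance) separated 1 library. WT M4, the library left out of the fit, scored 10.9, and the next highest, WT F3, scored 4.08. A single stem-loop carried 66.2% of the squared loadings of this component. It was at 3016 CPM in WT M4, and from 0 to 63.6 CPM in the 15 other libraries. With WT M4 put back, edgeR again called 0 of 418 stem-loops.

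**Figure D3:**
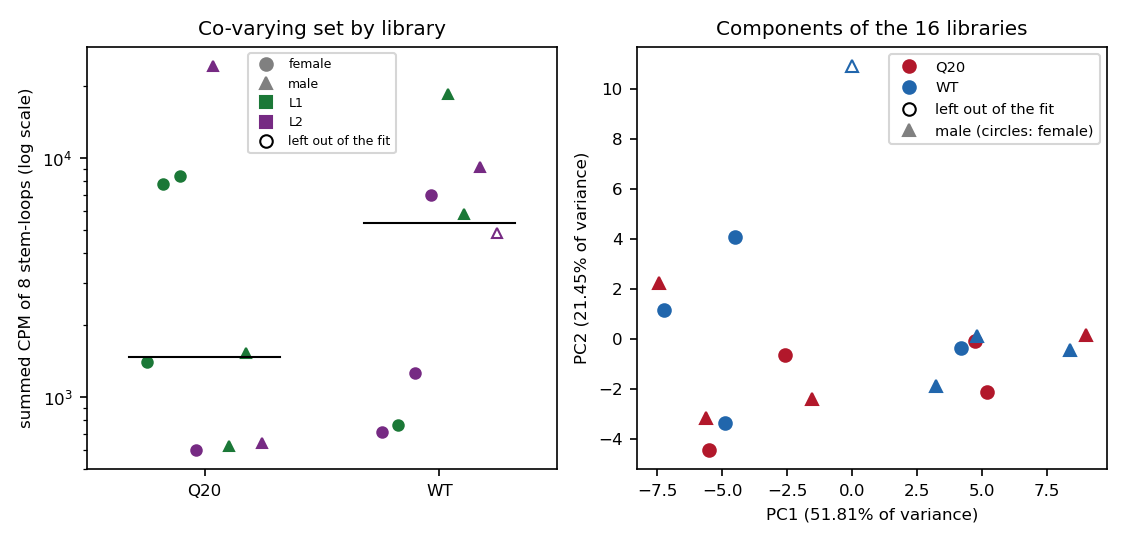
Left, the summed CPM of the 8 co-varying stem-loops (log scale) in 8 Q20 and 8 WT libraries, marked by sex and L field, with a bar at the median. Right, scores of the 16 libraries on the first 2 principal components. High libraries (above 5000 CPM) occur in both genotypes, and WT M4 stands alone at a second-component score of 10.9.

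The other terms of the same fit give a scale for the genotype term. The L field separated L2 from L1 libraries at 15 stem-loops (3.56% called), 9 higher and 6 lower in L2, with sizes of 0.21 to 0.88 on the log2 scale and 76 at an unadjusted p under 0.05. Males differed from females at 0 stem-loops by edgeR (0%), with 28 at an unadjusted p under 0.05. The comparison of these terms was added after the results were seen. Of the 22 stem-loops at an unadjusted p under 0.05 for genotype, 4 were among the 15 called for the L field. The L field term was -0.19 ± 0.08 for MI0000715 and -0.25 ± 0.07 for MI0000721 (SE, adjusted p = 0.223 and 0.0647, edgeR). Without the L field in the model, edgeR gave 9 stem-loops at an unadjusted p under 0.05 for genotype. The unadjusted p was then 0.136 for MI0021587, 0.121 for MI0000578, 0.0276 for MI0000715 and 0.160 for MI0000721.

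The genotype difference was not shown to depend on sex. The Q20 effect in males minus that in females passed at 0 of 421 stem-loops by edgeR (0%), with 14 at an unadjusted p under 0.05 and a smallest adjusted p of 0.742. DESeq2 also called 0, with 17 at an unadjusted p under 0.05. Within this model 0 stem-loops passed in males and 0 in females, with 11 and 26 at an unadjusted p under 0.05. The median SE of a change was 0.13 in either sex. For MI0021587 the log2 change was 0.22 ± 0.15 in males and 0.48 ± 0.15 in females, a difference of -0.25 ± 0.22 (SE). For MI0000721 it was -0.07 ± 0.10 in males and -0.27 ± 0.10 in females, a difference of 0.20 ± 0.14 (SE). Neither difference passed (adjusted p = 0.742 for both, edgeR).

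The Q20 effect differed between the ages at 39 stem-loops. In 1 fit of the 31 kept libraries of the line, the difference between Q20 and WT at 10 months minus that at 6 months passed at 39 of 437 by edgeR (8.92% called), 19 positive and 20 negative. This split moved with the scaling and the filter, to 19 positive and 12 negative with DESeq2 size factors, 18 and 6 with no low-count filter, 22 and 11 at a mean of 10 CPM or more, and 21 and 6 among L2 libraries alone. In that fit 52 stem-loops passed at 10 months (11.9% called) and 0 at 6 months. Of the 39, 33 passed at 10 months and 38 had effects of opposite sign at the 2 ages, as had 275 of all 437 tested. The 39 were called by the difference between the 2 effects, which favours opposite signs, and the 437 were not so chosen. None of the 19 positive ones reached a mean of 1000 CPM, and 12 of the 20 negative ones did, beside 94 of all 437 tested. For the 19, the median log2 change of Q20 over WT was 0.46 at 10 months and -0.19 at 6 months. For the 20 it was -0.24 at 10 months and 0.09 at 6 months. None of the 39 passed at 6 months, and the call itself favours 6-month medians on the other side of 0. None of the 8 co-varying stem-loops was among the 39, but their differences were imprecise. All 8 were above 0, from 0.44 to 2.08 on the log2 scale with a median of 1.30, at a median SE of 1.20. At 10 months all 8 were higher in Q20, with a median log2 change of 1.36 and a median SE of 0.87, and 0 passed. Since the 8 rise and fall together, they are not 8 separate results.

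Levels of 4 of the 39, those with the smallest p on each side, are given by group. The positive one with the smallest p was at 224, a median of 275 and 339 CPM in Q20 mice and 177, 211 and 220.2 CPM in WT mice at 10 months, where the ranges did not overlap. At 6 months it was at 186, 228 and 253 CPM in Q20 and 197, 236 and 239 CPM in WT, where they did. Its log2 effect was 0.46 ± 0.07 at 10 months and -0.05 ± 0.08 at 6 months, a difference of 0.51 ± 0.11 (SE, adjusted p = 0.00662, edgeR). The second positive one was at 40.1, a median of 153 and 250.45 CPM in Q20 and 33.4, 39.4 and 51.6 CPM in WT at 10 months. At 6 months it was at 62.4, 159.7 and 203 CPM in Q20 and 139.6, 175 and 200.5 CPM in WT. The 10-month WT libraries were thus the low ones, below all fitted Q20 and WT libraries of 6 months, and the difference in effect was 2.06 ± 0.44 (SE, adjusted p = 0.00662, edgeR).

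The leading negative one was at 1493, a median of 1653 and 1883 CPM in Q20 and 1797, 1906 and 2124 CPM in WT at 10 months, and at 1188, 1277 and 1453 CPM in Q20 and 1137, 1209.6 and 1411 CPM in WT at 6 months. Both genotypes were higher at 10 months, and WT more so. The difference in effect was -0.31 ± 0.06 (SE, adjusted p = 0.00662, edgeR). The next negative one was at 816, a median of 908 and 1020.3 CPM in Q20 and 1038, 1087 and 1182 CPM in WT at 10 months, with no overlap. At 6 months it was at 882, 1025 and 1326 CPM in Q20 and 949, 1005 and 1133 CPM in WT, for a difference in effect of -0.35 ± 0.08 (SE, adjusted p = 0.00662, edgeR).

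Of the 4 stem-loops ranked at 6 months, 2 were among the 39. MI0000578 was at 419, a median of 606 and 689.8 CPM in Q20 and 629, 698 and 835 CPM in WT at 10 months, so that its log2 effect was -0.28 ± 0.09 there (adjusted p = 0.0333) and 0.21 at 6 months in the same fit (difference -0.49 ± 0.12, SE, adjusted p = 0.0134, edgeR). MI0000715 was at 76.3, a median of 94.4 and 131 CPM in Q20 and 71.0, 79.9 and 91.0 CPM in WT at 10 months. Its effect was 0.27 ± 0.10 there, which did not pass (adjusted p = 0.0712), and -0.25 at 6 months (difference 0.52 ± 0.14, SE, adjusted p = 0.0220, edgeR). Their 6-month changes thus had the other sign at 10 months. Of all 22 stem-loops at an unadjusted p under 0.05 at 6 months, 6 were among the 39, beside 37 of all 421 tested at 6 months. At 10 months 5 of the 22 kept their sign, beside 159 of the 421. The ranked stem-loops and the 22 were picked by 6-month values that also enter the difference between ages. That choice favours calls and changes of sign, and the 421 were not so picked.

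The libraries of the 2 ages differed in more than age. At 10 months, Q20 mice had 7 libraries of L2 and 1 of L3, and WT mice had 5 of L2 and 3 of L3, whereas L1 occurred at 6 months alone in this line. Total counts at 10 months were 5316535 to 7157011 in Q20 and 5614560 to 12142170 in WT. The 8 co-varying stem-loops summed to 638 to 6281 CPM in Q20 (median 1675) and to 455 to 1308 CPM in WT (median 799.8) at 10 months. Of the 37 age calls that were also tested at 6 months alone, 3 were called for the L field there, beside 15 of all 421 tested. Among L2 libraries alone 27 of 456 stem-loops tested passed, 20 of them among the 39. With the summed level of the 8 as a covariate 18 of 429 passed, all among the 39. Without Q20 F4 or without Q20 M4 of 6 months 23 of 437 passed. All 39 kept their direction in each of these fits.

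**Figure D4:**
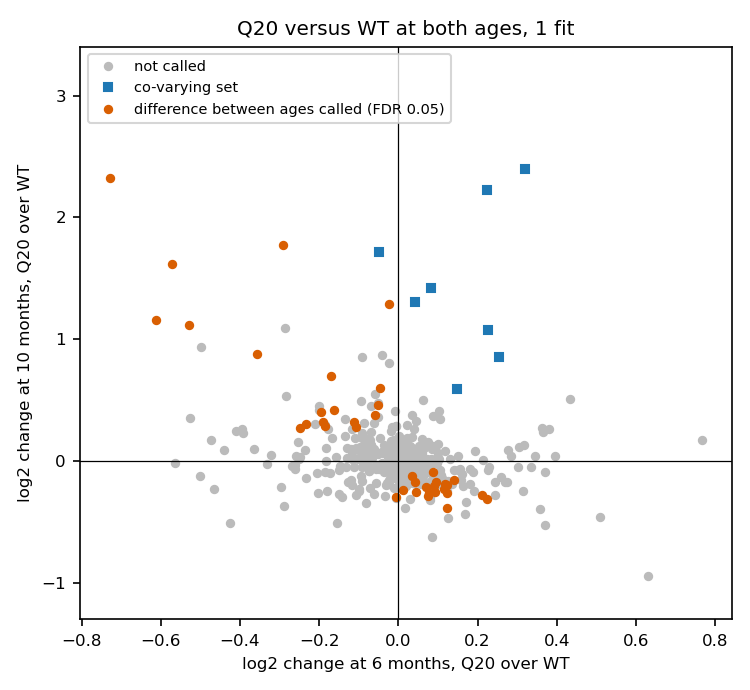
Log2 change of Q20 over WT at 10 months (y axis) against that at 6 months (x axis) from 1 fit of both ages, 1 point per stem-loop, with orange for a difference between ages at FDR 0.05 and blue squares for the 8 co-varying stem-loops. The orange points lie in the upper left (19) and lower right or at its edge (20), and the horizontal spread is small beside the vertical one for the upper group.

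The Q50 effect at 6 months, taken against WT mice of the Q50 line, was not shown to differ from the Q20 effect. The fit held 28 libraries, from 7 Q50 mice and 6 of their WT littermates (1 and 2 left out by the screen) and the 8 Q20 and 7 WT mice above. Their difference, Q50 minus Q20, passed at 0 of 436 stem-loops by edgeR (0%), with 8 at an unadjusted p under 0.05 and a smallest adjusted p of 0.875, and DESeq2 called 0 with 7 at an unadjusted p under 0.05. In the same fit 0 stem-loops passed for Q50 and 0 for Q20, with 12 and 18 at an unadjusted p under 0.05, at median SEs of 0.10 and 0.09. MI0021587 changed by 0.00 ± 0.21 in Q50 against its WT littermates, and the difference from the Q20 effect was -0.33 ± 0.28 (SE). MI0000715 changed by -0.01 ± 0.08 in Q50, and the difference was 0.24 ± 0.11 (SE). Neither passed (adjusted p = 0.997 for both, edgeR). Of the 22 stem-loops at an unadjusted p under 0.05 in Q20, 14 had the same sign in Q50, beside 231 of all 421 tested.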

How the data were processed

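Small RNA from cortex was sequenced in 96 libraries. Per the methods of the study, clipped reads were aligned to mm10 with STAR and counted with HTSeq, and the processing notes of the submitters name CASAVA 1.8.2. No source used here gives other versions or the rule for reads shared between loci. The authors deposited estimated counts per stem-loop, not normalized and often not whole (1187 stem-loops), which were rounded to whole numbers. The authors also deposited FPKM values, which were not tested. All columns were matched to samples by description.

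Stem-loops were filtered with filterByExpr, scaled by TMM and tested with edgeR 4.0.16 (robust quasi-likelihood, R 4.3.3) on sex, the L field and genotype, with Benjamini-Hochberg adjustment over all tested. DESeq2 1.42.0 was an alternative. Differences of effects (sex, age, line) were tested as interactions. The test was checked on simulated data. Intervals are 95%. CPM in the text are TMM-scaled over the line's libraries, and shares and the summed level of the 8 stem-loops are of library totals. Named stem-loops are those with the smallest p at a mean of 10 CPM or more, limited to 2 per direction because accessions had no names here. The microRNA lists planned by name could not be applied for the same reason, and sequences were not used here. The comparison, lists and alternatives were chosen with earlier results of these data known. Alternatives were other filters, scalings, covariates and sample sets, and leaving out each library.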

Additional observations from a re-analysis of the deposited data

Results flagged for a closer look

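By a screen for single extreme libraries within groups of 8 (Dixon's criterion, 18 sets of values compared), 5 values stood apart. About 1 in 20 would be flagged by chance if values were normally spread, but they were screened without a log scale. The summed level of the 8 co-varying stem-loops was 24316 CPM in Q20 M1. MI0021587 was at 71.4 CPM in WT F1. WT M1 had 7632612 counts. The stem-loop that leads the second component was at 24.7 CPM in Q20 M2 and at 3016 CPM in WT M4. This stem-loop and the summed level were picked for their spread between libraries, which favours flags in them.

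The test of the Q20 effect at 10 months minus that at 6 months singled out 39 stem-loops. Among those described, the difference was -0.49 for MI0000578 and 0.52 for MI0000715 on the log2 scale. For the unnamed ones with the smallest p it was 0.51 and 2.06 on the positive side and -0.31 and -0.35 on the negative side.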

How the results depend on the processing

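Over 30 alternatives the 6-month comparison gave 0 calls each time (smallest adjusted p from 0.173 to 0.9998, with 6 to 34 stem-loops at an unadjusted p under 0.05), 15 of which left out 1 library each (0 to 0 calls). The replicate numbers were not shown to pair the animals (correlations of same-numbered libraries from -0.82 to 0.63, 4 of 8 pairs over 0.1, 2 of 8 Q20 libraries closest to their own number). So few pairs cannot exclude it. A fit with the replicate block gave 0 calls and 11 at an unadjusted p under 0.05. Litter did not enter the model. MI0021587 (0.16 to 0.58), MI0000578 (0.08 to 0.25), MI0000715 (-0.37 to -0.13) and MI0000721 (-0.28 to -0.02) kept their direction in all 30 and passed in none. The differences by sex and by line gave 0 calls in both alternatives of each. The age difference gave 18 to 55 calls over 39 alternatives, 9 to 37 positive and 6 to 23 negative, with more positive than negative calls in 32. It gave 24 without a low-count filter (more stem-loops tested, 950), 18 with the 8 co-varying stem-loops as a covariate (chosen after seeing the data), and 23 to 55 when 1 library was left out, the lowest being without Q20 F4 or Q20 M4 of 6 months. The cause was not tested. A covariate of 2 named microRNA clusters was not run, since accessions had no names here. Precision was limited with 7 or 8 animals per group. In the 6-month fit it was lowest, among classes of abundance, under 10 CPM (median SE 0.17). The 8 co-varying stem-loops were less precise still (median SE 1.07). What depth contributed was not tested.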
